A study of Mus musculus with 15 samples.

Results

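The RNA of extracellular vesicles (EVs) from the plasma of hypertrophic mice was compared with that of wild type (WT) mice. The comparison used 9 of the 15 libraries of the series, which were 6 titled hypertrophic and 3 titled wild type, each named below by its group and a replicate number given in the order of deposit. It was described across 598 of the 6887 genes tested, chosen because they had 10 or more counts in at least 2 WT and at least 4 hypertrophic libraries. These 598 are called member genes. Lowering the minimum to 5 counts gave 624 genes and raising it to 20 counts gave 558.

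WT mice were C57BL/6. The hypertrophic libraries carry the genotype MAGIC F1 in the labels, which stands for Met-activating genetically improved chimeric factor 1, an engineered ligand of the Met receptor. The study's methods name Mstn-null mice, which lack myostatin, as the source of the hypertrophic RNA-seq samples, so which of the 2 models these libraries come from is open. The promoter that drives the transgene is not given in the sources used here. The mice of both groups were 3 to 6 months old with no drug treatment given. Each sample was a pool of EVs from 2 to 3 mice, so the replicates are pools. The edgeR p-values of the main fit rest on a spread shared over genes, not on each gene's own spread between pools. The labels name serum as the source and the design text names plasma. The other 6 libraries, from dystrophic Sgcb null mice, entered the fit to share its estimate of the spread. They are set against WT below only for the mitochondrial ribosomal RNAs. No difference from WT described below is therefore shown to be particular to the hypertrophic libraries.

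EVs are membrane-bound particles that cells shed into the blood, and they carry fragments of the RNA of the cells that made them. Platelets and maturing red cells are the main sources of RNA in cell-poor blood fractions, so transcripts of platelet chemokines, thymosin, ferritin and globin are usual in plasma preparations. Platelets hold mitochondria, whose genome codes for 2 ribosomal RNAs, for the tRNAs and for 13 subunits of the respiratory chain. Hypertrophic muscle has enlarged fibres, and myostatin restrains muscle growth while hepatocyte growth factor acts on muscle progenitors through Met.

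The libraries differed widely in depth. WT replicates 1 to 3 held 27227, 7738568 and 601506 reads on genes, and the hypertrophic libraries held between 328710 and 6461652. Genes with 10 or more counts numbered 475 to 4268 in WT and 639 to 5155 in hypertrophic libraries. WT replicate 2 had counts for every member gene, whereas WT replicate 1 had none for 248 of them and hypertrophic replicate 5 none for 256. Of the 598 member genes, 179 had at least 1 count in all 9 libraries and 116 had 10 or more in all 9. A value of 0 allowed up to 110 counts per 1000000 reads on genes (CPM) in WT replicate 1, from an upper limit of 3 counts, but only 0.388 CPM in WT replicate 2. As the RNA was amplified and reads are not independent molecules, such limits reflect counting error alone.

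The number in the title and the number in the name of the data file differed for hypertrophic replicates 1 to 3 and for dystrophic replicates 4 to 6, whose numbers were exchanged with each other. By file number all 6 hypertrophic libraries belong to a later number series than the 3 WT libraries, so number series and group cannot be told apart. By title number, hypertrophic replicates 1 to 3 share the series of the WT libraries. Values are therefore given with and without these libraries where a result rests on them.

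The clearest difference lay in the mitochondrial ribosomal RNAs mt-Rnr1 and mt-Rnr2, the 12S and 16S RNA of the mitochondrial ribosome. Both were lower in CPM in every hypertrophic library than in every WT library, a separation that was lost with the scaling of the test, as described below. They were the only genes past the threshold of 0.05 in edgeR's quasi-likelihood test with Benjamini-Hochberg adjustment. No gene was called higher, which is 0% of the 6887 tested, and 2 were called lower, which is 0.0290%. In counts simulated with the dispersions of these libraries the test recovered 0% of 4-fold and 0% of 16-fold changes. A gene or list without a call is therefore not shown to be unchanged. At an unadjusted p under 0.05, 115 genes (1.67%) were higher and 437 (6.35%) lower over all genes tested, against 1 and 5 of the 598 member genes. The sequences below are shown because these are the genes called, together with the noncoding RNA Gm12840 described later. They are 100-base stretches of the GENCODE M21 transcripts on mouse build GRCm38/mm10, all on the plus strand, and capitals mark the 20 bases with the most adenines, a feature of interest because the labels name the molecule as polyA RNA.
mt-Rnr1, chrM:685-784: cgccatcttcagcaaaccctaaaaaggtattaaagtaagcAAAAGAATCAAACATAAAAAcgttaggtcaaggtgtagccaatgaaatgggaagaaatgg
mt-Rnr2, chrM:1448-1547: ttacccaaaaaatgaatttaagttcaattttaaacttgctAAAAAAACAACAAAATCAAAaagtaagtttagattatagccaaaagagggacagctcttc
Gm12840, chr4:117700819-117700918: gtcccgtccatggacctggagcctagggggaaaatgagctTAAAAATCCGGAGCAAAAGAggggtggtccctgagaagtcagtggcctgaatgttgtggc

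Adenine made up 37.8% of the 955 bases of mt-Rnr1 and 38.2% of the 1582 bases of mt-Rnr2, against a median of 24.8% over the 579 member genes with a GENCODE transcript. The capitals of mt-Rnr2 hold 16 adenines, a number that 108 of the 579 transcripts (18.7%) reach in some 20-base window. Those of mt-Rnr1 hold 15, which 159 (27.5%) reach. Gm12840 had 19.6% adenine and at most 11 in 20 bases, which 548 (94.6%) reach. These are descriptions of the letters, and their part in the read counts was not tested.

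mt-Rnr2 (chrM:1094-2675) had 129063, 137237 and 134391 CPM in WT replicates 1 to 3. The hypertrophic libraries ranged from 33296 to 114559 CPM, with a median of 72825. In CPM the WT libraries lay close together around 133564 ± 4149 (SD, n = 3), a closeness lost with the scaling of the test. The 6 hypertrophic libraries spread over 71845 ± 32065 CPM (SD, n = 6), and replicates 1 and 4 were the lowest. The log2 fold change, hypertrophic over WT, was -1.16 with a standard error of 0.15 (edgeR adjusted p = 2.39e-10). That standard error and p reflect the spread shared over genes, not the spread of mt-Rnr2 between libraries.

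mt-Rnr1 (chrM:70-1024) had 68829, 69635 and 55386 CPM in WT and between 16674 and 47825 CPM in hypertrophic libraries, with a median of 36008. In CPM the groups again did not overlap, and the same replicates 1 and 4 were lowest. Its log2 fold change was -1.21 with a standard error of 0.22 (edgeR adjusted p = 0.000154). In the same fit the dystrophic libraries were also lower than WT. Their log2 fold changes were -1.05 for mt-Rnr2 (edgeR adjusted p = 4.18e-08) and -0.91 for mt-Rnr1 (adjusted p = 0.154). The lower level is thus not particular to the hypertrophic libraries. The reads on mt-Rnr2 per read on mt-Rnr1, not corrected for length, were 1.88 to 2.43 in WT and 1.78 to 2.65 in hypertrophic libraries, so that ratio overlapped between groups. Nuclear copies of mitochondrial DNA could take or lend some of these reads, which the counts do not show.

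Scaling moved these values. When CPM was divided by the trimmed mean of M-values (TMM) factor of each library, as in the edgeR test, WT replicate 1 fell to 90748 CPM for mt-Rnr2 and 48395 CPM for mt-Rnr1. WT replicates 2 and 3 rose to 187158 and 188963 CPM for mt-Rnr2, so the WT libraries no longer lay close together. Hypertrophic replicate 2 then stood above WT replicate 1, at 148677 and 62068 CPM, so that both genes overlapped between groups. The other 5 hypertrophic libraries were still below every WT library. With TMM scaling, the median log2 fold change of the member genes was -0.25, and with library size alone it was 0.18. Relative to that median, mt-Rnr2 was lower by 0.90 and 1.07 and mt-Rnr1 by 0.96 and 1.16 on the log2 scale under the respective scaling, and mt-Rnr2 lay 0.86 below the median with DESeq2 size factors in edgeR. DESeq2 itself called neither gene (adjusted p = 0.873 for mt-Rnr1 and 0.898 for mt-Rnr2) and called 892 other genes higher (14.3% of the 6244 with an adjusted p) and 139 lower (2.23%), with 0 member genes among them. A limma-trend fit on the member genes alone called 0, with 17 higher and 6 lower at an unadjusted p under 0.05. Its adjusted p was 0.154 for mt-Rnr1 and 0.177 for mt-Rnr2.

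The messenger RNAs of the same mitochondrial genome did not follow the ribosomal RNAs past the spread. The 2 ribosomal RNAs together took 19.0% to 20.7% of the reads on genes in WT and 4.997% to 16.2% in hypertrophic libraries. The 13 mitochondrial mRNAs took 0.857% to 2.23% in WT and 0.831% to 2.88% in hypertrophic libraries, which overlap. Reads on ribosomal RNA per read on mitochondrial mRNA were 16.6, 9.29 and 22.1 in WT replicates 1 to 3 and 3.88 to 10.6 in hypertrophic libraries, where 5 of the 6 were below the lowest WT library. With globin reads taken out of the total, ribosomal RNA took 20.2% to 21.6% in WT and 5.14% to 17.0% in hypertrophic libraries.

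**Figure D1:**
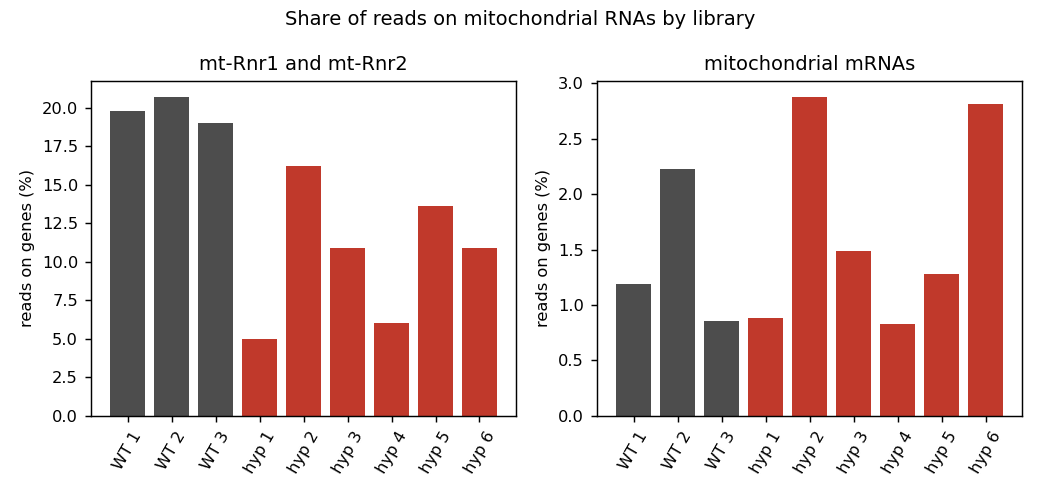
Percent of reads on genes taken by the 2 mitochondrial ribosomal RNAs (left) and by the 13 mitochondrial mRNAs (right), 1 bar a library, WT in grey and hypertrophic in red. The WT bars on the left stand at 19.0% to 20.7% and all 6 hypertrophic bars are lower, at 4.997% to 16.2%, whereas the bars on the right overlap between groups.

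Of the 13 mitochondrial mRNAs, 7 were tested and 6 were member genes, 3 with a higher and 3 with a lower mean CPM in hypertrophic libraries, and 0 passed the test. mt-Co1, the catalytic subunit of cytochrome c oxidase, had 2865, 6576 and 1756 CPM in WT and 2569 to 11558 CPM (median 6886) in hypertrophic libraries. Its log2 fold change was 0.72 with a standard error of 0.66 (edgeR adjusted p = 0.652). mt-Cytb, of complex III, had 2755, 6603 and 2349 CPM against 1089 to 6944 CPM (median 3841). Both genes overlapped between groups, with 3 of the 6 hypertrophic libraries above every WT library for mt-Co1. Of the 22 mitochondrial tRNAs only mt-Tw was counted, in 1 hypertrophic library at 2.48 CPM.

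Over all member genes, the groups differed by less than the spread between libraries of 1 group for most genes. The ratio of mean CPM, computed with 1 CPM added, was within 2-fold for 424 of the 598 (70.9%), more than 2-fold higher in hypertrophic libraries for 105 and more than 2-fold lower for 69. Over all genes tested these shares were 49.3% higher and 21.2% lower. The median log2 ratio of mean CPM was 0.18 for the member genes and 0.94 for all genes tested, where a gene seen in 1 library of 1 group weighs as much as any other. The SD over hypertrophic libraries exceeded the difference of the group means for 79.4% of member genes. Among the 179 genes counted in all 9 libraries, 146 (81.6%) were within 2-fold.

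**Figure D2:**
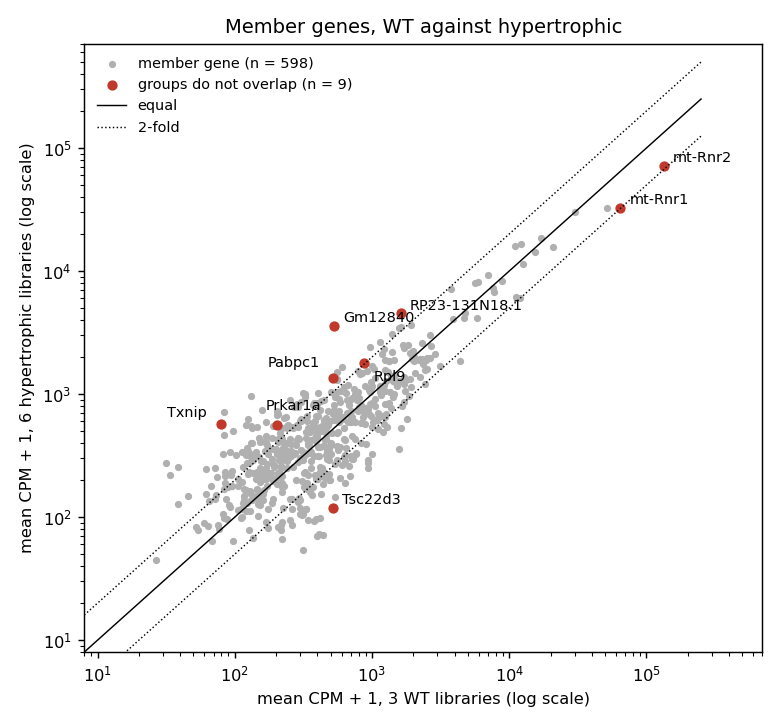
Mean CPM + 1 of the 598 member genes over 3 WT libraries (x axis) and 6 hypertrophic libraries (y axis), both on log scales, with the line of equality and dotted 2-fold lines. Red points are the 9 genes whose groups do not overlap, and mt-Rnr1 and mt-Rnr2 lie below equality near the lower 2-fold line at the top of the range.

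In 9 member genes no hypertrophic library overlapped a WT library in CPM. All hypertrophic libraries were higher for 6 genes, against 0.174% of all genes tested, and lower for 3, against 0.276%. Beside the mitochondrial ribosomal RNAs these were Gm12840, RP23-131N18.1, Txnip, Prkar1a, Pabpc1 and Rpl9 on the higher side and Tsc22d3 on the lower. None of these 7 passed edgeR's adjusted threshold. With TMM-scaled CPM, 17 of the 598 member genes did not overlap, 3 higher and 14 lower. Over all 6887 genes tested, 7 (0.102%) were higher and 29 (0.421%) lower. The 17 shared only Gm12840, Txnip and Tsc22d3 with the 9. Tmsb4x, Pf4 and Gng11, described below, were among the 14.

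Gm12840 is a long intergenic noncoding RNA at chr4:117700188-117700923 with 2 exons. It had 1396, 185 and 11.6 CPM in WT, from 38, 1431 and 7 counts, and 1900 to 5890 CPM (median 3277) in hypertrophic libraries. Every hypertrophic library was above the highest WT library, and the SD was 754 CPM over WT and 1512 CPM over hypertrophic libraries. The log2 fold change was 3.04 with a standard error of 1.11 (edgeR unadjusted p = 0.00615 and adjusted p = 0.267), and Gm12840 was the one member gene higher at an unadjusted p under 0.05. It kept the same direction in hypertrophic replicates 4 to 6 (3.20) and in replicates 1 to 3 (2.87), which share the WT libraries as controls.

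RP23-131N18.1, a symbol with no match in the gene tables used here, had 1469, 2568 and 801 CPM in WT and 2594 to 10515 CPM (median 3416) in hypertrophic libraries. The lowest hypertrophic library was just above WT replicate 2, and hypertrophic replicate 2 was far above the rest. Its log2 fold change was 1.28 with a standard error of 0.73 (edgeR adjusted p = 0.430).

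Txnip codes for thioredoxin-interacting protein, an inhibitor of thioredoxin that responds to glucose. It had 0, 162 and 74.8 CPM in WT and 373 to 705 CPM (median 576) in hypertrophic libraries. The hypertrophic libraries lay close together at 569 ± 133 CPM (SD, n = 6), while the 0 in WT replicate 1 allowed up to 110 CPM. The annotated antisense RNA Gm15441 overlaps it on the other strand, and the sources disagree on whether the library kit kept strand.

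Prkar1a, a regulatory subunit of protein kinase A, had 184, 104 and 318 CPM in WT and 342 to 791 CPM (median 576) in hypertrophic libraries. Pabpc1, the cytoplasmic poly(A)-binding protein, had 0, 667 and 893 CPM against 983 to 2132 CPM (median 1269). Rpl9, a protein of the large ribosomal subunit with many pseudogene copies, had 808, 944 and 886 CPM against 1063 to 2860 CPM (median 1545). The gaps between the highest WT and the lowest hypertrophic library were small for all 3, and with DESeq2 size factors in edgeR the 3 log2 fold changes turned from 1.02, 0.83 and 0.53 to -0.37, -0.50 and -0.43. That scaling also moved the median log2 fold change of the member genes, from -0.25 to -1.39, and the 3 genes stayed above the median.

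Tsc22d3 codes for GILZ, a leucine zipper protein induced by glucocorticoids. It had 918, 315 and 334 CPM in WT and 0 to 295 CPM (median 93.8) in hypertrophic libraries, 2 of which had 0 counts. Its log2 fold change was -2.22 with a standard error of 1.90 (edgeR adjusted p = 0.598).

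**Figure D3:**
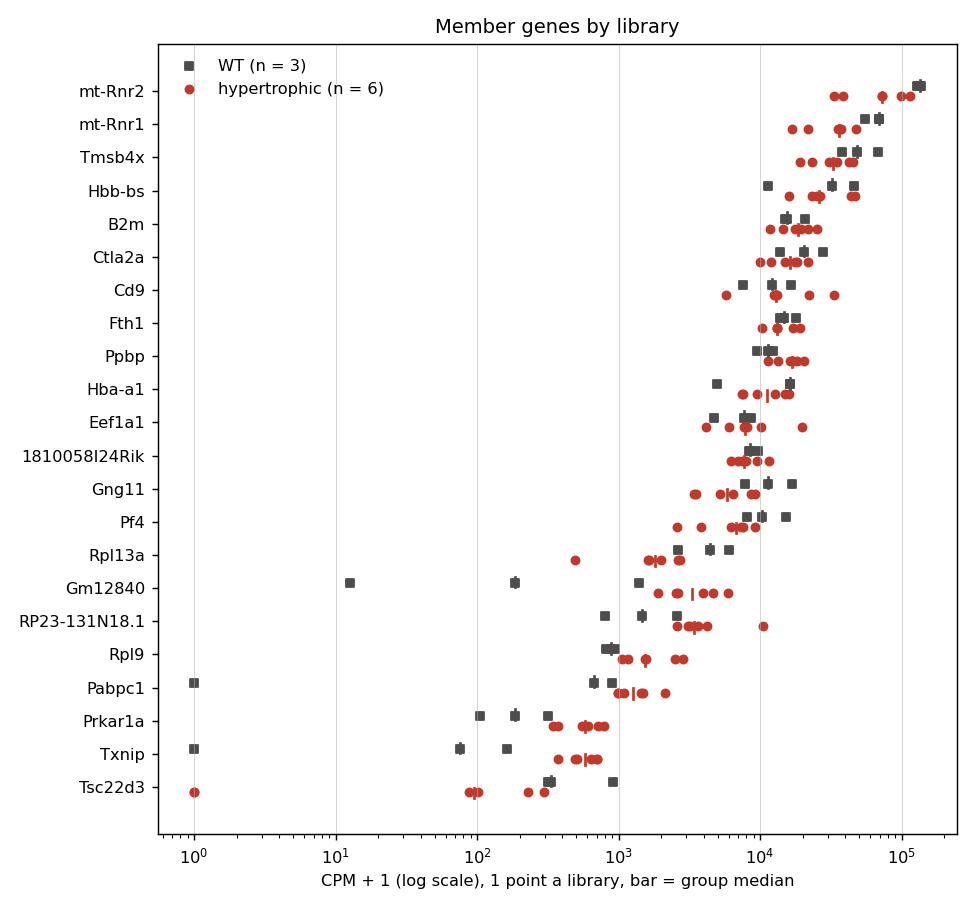
CPM + 1 on a log scale for 22 member genes, 1 point a library, WT as grey squares and hypertrophic as red circles, with a bar at each group's median. The 12 genes at the top took the most reads, and in CPM only mt-Rnr2 and mt-Rnr1 among those 12 have no overlap between groups. Points at 1 are libraries with 0 counts.

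The 12 member genes with the most reads took 35.3% to 43.2% of reads on genes in WT and 20.4% to 34.5% in hypertrophic libraries, which did not overlap. They were mt-Rnr2, mt-Rnr1, Tmsb4x, Hbb-bs, B2m, Ctla2a, Cd9, Fth1, Ppbp, Hba-a1, Eef1a1 and 1810058I24Rik. The shares of the 12 thus include the mitochondrial ribosomal RNAs, which separated the groups by themselves. In WT replicate 3 the 12 took 35.3% and the ribosomal RNAs 19.0%. In hypertrophic replicate 3 the 12 took 34.5% and the ribosomal RNAs 10.9%. The other 10 as a sum were therefore not lower in every hypertrophic library than in every WT library. Apart from the ribosomal RNAs, the other 10 overlapped between groups in CPM, whereas with TMM-scaled CPM Tmsb4x did not overlap and the ribosomal RNAs did. Member genes as a whole took 73.0% to 84.2% of reads in WT and 62.3% to 76.9% in hypertrophic libraries.

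Tmsb4x codes for thymosin beta 4, which binds actin monomers and is abundant in platelets. It had 67837, 48719 and 37903 CPM in WT and 19030 to 45139 CPM (median 32614) in hypertrophic libraries. Hypertrophic replicates 1 and 3 reached into the WT range and the other 4 were below it. The log2 fold change was -0.87 with a standard error of 0.24 (edgeR unadjusted p = 0.000342 and adjusted p = 0.267). It passed the adjusted threshold without hypertrophic replicates 1 to 3 and dystrophic replicates 4 to 6 (log2 fold change -1.31, adjusted p = 0.0336), without WT replicate 1 (-0.98, adjusted p = 0.0337), and with DESeq2 size factors in edgeR (-1.73, adjusted p = 0.0176). With those size factors the median log2 fold change of the member genes was itself -1.39. Relative to that median Tmsb4x was at -0.34, a smaller difference than the -0.62 relative to the median of the main fit. Of the 22 genes for thymosin and for actin and its binding proteins, 19 were member genes, 10 with a higher and 9 with a lower mean in hypertrophic libraries. The 17 actin and actin-binding members had a median log2 ratio of mean CPM of 0.27, beside 0.18 over all member genes.

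All 33 platelet genes of the list were detected and 22 were member genes, 15 with a higher and 7 with a lower mean in hypertrophic libraries. None was called, and 2 of the 33 were lower at an unadjusted p under 0.05. The chemokines Pf4 and Ppbp are released together from platelet granules. Pf4 had 15242, 10349 and 8033 CPM in WT and 2596 to 9258 CPM (median 6787) in hypertrophic libraries, and only replicate 3 reached above the lowest WT library. Ppbp had 11422, 12377 and 9460 CPM in WT and 11370 to 20308 CPM (median 16686) in hypertrophic libraries, so 5 of the 6 were above the highest WT library. The log2 fold changes were -0.96 for Pf4 (standard error 0.52, edgeR adjusted p = 0.430) and 0.26 for Ppbp (standard error 0.44, adjusted p = 0.945), and their difference was not tested.

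Gng11 codes for a G protein gamma subunit of platelets. It had 16895, 11314 and 7835 CPM in WT and 3429 to 9124 CPM (median 5813) in hypertrophic libraries. Replicates 1 and 3 exceeded the lowest WT library and the other 4 did not. The log2 fold change was -1.09 with a standard error of 0.51 (edgeR unadjusted p = 0.0330 and adjusted p = 0.430). The summed level of the platelet list was 44345 to 73126 CPM in WT and 39615 to 82775 CPM in hypertrophic libraries. In such pooled material, fewer EVs of a cell type and less RNA per EV cannot be told apart.

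The 4 adult globin genes, whose products carry oxygen in red cells, were all member genes and summed to 22288 to 84218 CPM in WT and 28494 to 81092 CPM in hypertrophic libraries. Hbb-bs had 46424, 11334 and 32036 CPM in WT and 15932 to 46535 CPM (median 25937) in hypertrophic libraries, an almost complete overlap. Reads on Hba-a1 and Hba-a2 cannot be split with certainty because the genes are nearly identical. Of 13 genes for heme synthesis and iron handling, 4 were member genes and 0 were called. Fth1, the ferritin heavy chain, had 13773, 17900 and 14738 CPM in WT and 10226 to 19282 CPM (median 13170) in hypertrophic libraries, and Alas2, the first enzyme of erythroid heme synthesis, had 3930, 478 and 1568 CPM against 701 to 7058 CPM (median 1313).

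Of 23 late erythroid genes in the tables, 18 were detected and 6 were member genes, 4 with a higher and 2 with a lower mean in hypertrophic libraries. Their summed level was 2404 to 3379 CPM in WT and 2489 to 6909 CPM in hypertrophic libraries. Bpgm, which makes the 2,3-bisphosphoglycerate that loosens oxygen from hemoglobin, had 36.7, 111 and 416 CPM in WT and 36.5 to 1035 CPM (median 552) in hypertrophic libraries. Hypertrophic replicate 5 was at the bottom of the range and the other 5 were above WT replicate 3.

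Markers of other cells were sparse. The neutrophil list of 15 genes had 1 member gene, S100a9, with 1028, 124 and 298 CPM in WT and 4.43 to 1101 CPM (median 109) in hypertrophic libraries, and the list summed to 287 to 1836 CPM in WT and 7 to 1101 CPM in hypertrophic libraries. Of 11 monocyte and macrophage genes only Lyz2, a lysozyme, was a member gene. It had 698, 897 and 201 CPM against 886 to 3432 CPM (median 1404), and the summed list was 203 to 1027 CPM in WT and 1029 to 3432 CPM in hypertrophic libraries, which just failed to overlap in CPM. Divided by the TMM factors, 0.733 for WT replicate 2 and 1.78 for hypertrophic replicate 5, the summed list overlapped between groups. None of the 8 T cell genes and none of the 18 genes for liver-secreted plasma proteins was a member gene, while 4 of 8 B cell genes and 1 of 7 endothelial genes were. Alb, serum albumin, was at 0, 0 and 4.99 CPM in WT and at 0 in 3 hypertrophic libraries, with 273 to 797 CPM in the other 3. The part of these markers in the other results was not tested.

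Skeletal muscle transcripts gave no member gene. Of 27 muscle genes, 20 were detected and 8 tested, with a summed level of 0 to 675 CPM in WT and 3 to 794 CPM in hypertrophic libraries. Acta1, skeletal actin, had 0, 187 and 203 CPM in WT and was counted in 1 hypertrophic library only, at 74.6 CPM. Of 16 genes of the myostatin pathway, 9 were detected and none was a member gene. Mstn itself had 0 counts in all 9 libraries, as the ligand Hgf and its receptor Met did, so these 3 genes give no check of either model. Of the 14 Met signalling genes, 12 were tested and 2 were member genes. Ptpn11, the phosphatase SHP2, had 771, 141 and 3.32 CPM in WT and 178 to 536 CPM (median 340) in hypertrophic libraries, and Akt1, a kinase downstream of PI3-kinase, had 992, 155 and 1.66 CPM against 0 to 787 CPM (median 141). Both varied more within WT than between groups.

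The EV list held 9 tetraspanins and 11 sorting proteins, of which 5 were member genes and 0 were called. Cd9, a tetraspanin of EVs and platelets, was counted in every library, with 16638, 12034 and 7568 CPM in WT and 5783 to 33354 CPM (median 12964) in hypertrophic libraries. Cd81 had 551, 225 and 0 CPM in WT and was at 0 in 2 hypertrophic libraries, with at most 238 CPM in the others. Sdcbp, the adaptor syntenin, had 0, 1035 and 830 CPM in WT and 778 to 1631 CPM (median 1044) in hypertrophic libraries. The 5 genes for cell organelle proteins used as negative EV markers summed to 441 to 1819 CPM in WT and 6 to 3876 CPM in hypertrophic libraries. Neither set separated the groups.

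Genes for protein synthesis made up the largest list among the member genes. Of the 79 cytosolic ribosomal protein genes, 72 were member genes, 28 with a higher and 44 with a lower mean in hypertrophic libraries. Their median log2 ratio of mean CPM was -0.23 beside 0.18 over all member genes, and their median TMM-scaled log2 fold change was -0.69 beside -0.25. None was called, with 1 lower at an unadjusted p under 0.05. That gene was Rpl13a, of the large subunit, which had 4444, 2619 and 5983 CPM in WT and 490 to 2698 CPM (median 1810) in hypertrophic libraries. Its log2 fold change was -1.49 with a standard error of 0.70 (edgeR unadjusted p = 0.0337 and adjusted p = 0.430), and 4 of the 6 hypertrophic libraries were below all WT libraries. Rpl13a hosts several snoRNA genes in its introns, and ribosomal protein genes share reads with pseudogenes.

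Summed over the list, ribosomal protein reads were 43266 to 132072 CPM in WT and 44316 to 101278 CPM in hypertrophic libraries. The 16 translation factor genes gave 14 member genes, 6 with a higher and 8 with a lower mean. Eef1a1, which delivers aminoacyl-tRNA to the ribosome, had 4701, 8619 and 7669 CPM in WT and 4140 to 19649 CPM (median 7830) in hypertrophic libraries, with replicate 4 at the top. Eef2, the translocation factor, had 441, 1520 and 2266 CPM against 1803 to 4488 CPM (median 2712), and replicates 1, 3 and 5 were below WT replicate 3.

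Nuclear genes of mitochondria were mostly below the minimum. None of the 77 genes for mitochondrial ribosomal proteins was a member gene, and 15 of the 82 nuclear respiratory chain genes were, 5 with a higher and 10 with a lower mean in hypertrophic libraries. Their summed levels overlapped, at 294 to 2539 against 711 to 2446 CPM for the former and 6354 to 15837 against 5682 to 12829 CPM for the latter. Cox5a, a nuclear subunit of cytochrome c oxidase, had 1139, 1472 and 981 CPM in WT and 541 to 1865 CPM (median 848) in hypertrophic libraries.

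The lists for metabolism and cell upkeep gave no call either. Of 15 glycolysis genes, 8 were member genes, 6 with a higher and 2 with a lower mean, and Pkm, pyruvate kinase, had 0, 426 and 549 CPM in WT and 95.5 to 2294 CPM (median 833) in hypertrophic libraries. Of 13 antioxidant genes 5 were member genes, among them the peroxiredoxin Prdx6 with 1469, 1297 and 1031 CPM against 698 to 2262 CPM (median 1099). The proteasome and the 14-3-3 adaptors each gave 3 member genes, Rab GTPases 6, histones 4, and nuclear long noncoding and snoRNA host RNAs 1. Of the antigen presentation genes, MHC class I and class II each gave 3, and B2m, the light chain of class I, had 20752, 15523 and 15100 CPM in WT and 11692 to 25113 CPM (median 18575) in hypertrophic libraries. Interferon-induced genes gave 1. Both Ctla2 protease inhibitor genes were member genes, and Ctla2a had 27803, 20509 and 13739 CPM in WT and 9915 to 21764 CPM (median 16319) in hypertrophic libraries, with 0 calls. The other 381 member genes were in no list.

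**Figure D4:**
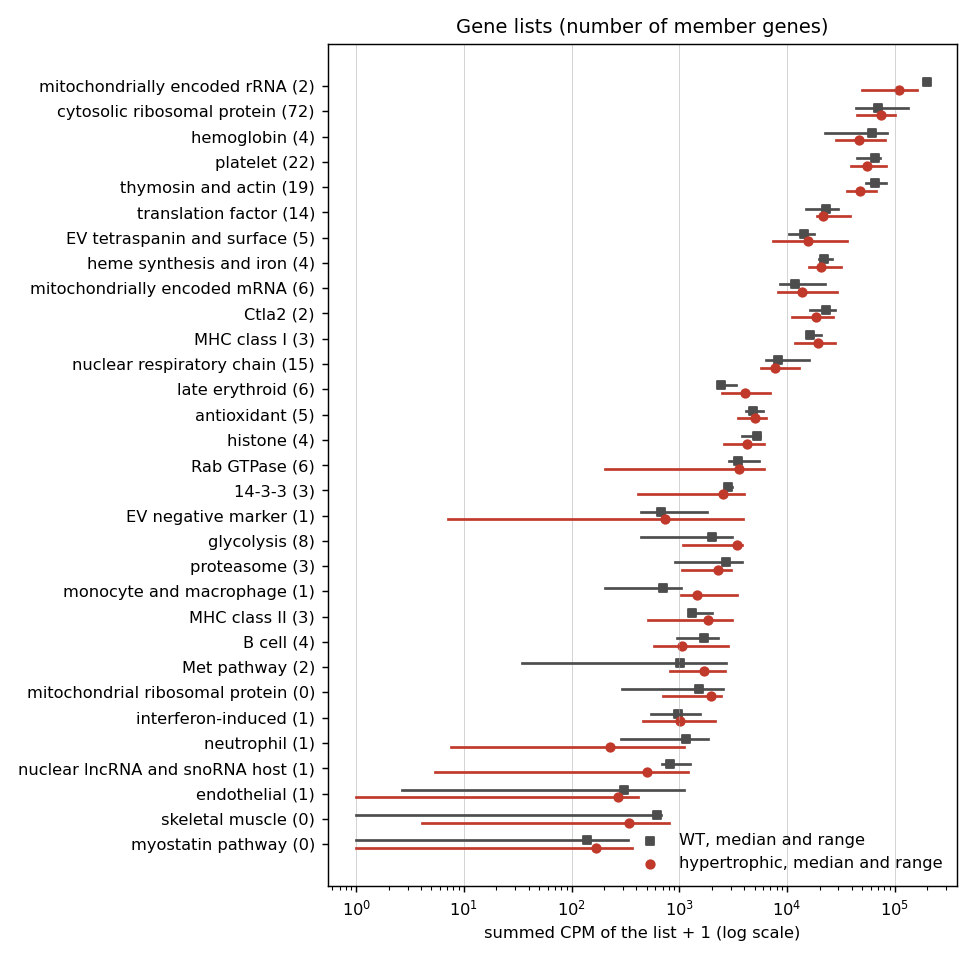
Summed CPM + 1 of each gene list on a log scale, with the median (marker) and the range (line) over 3 WT libraries in grey and 6 hypertrophic libraries in red, and the number of member genes in brackets. Lists with a WT median of 100 CPM or less are not drawn. In CPM only the mitochondrial ribosomal RNAs, at 189777 to 206872 CPM in WT against 49969 to 162384 CPM, and the monocyte list show no overlap. With TMM scaling both lists overlapped.

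Leaving out hypertrophic replicates 1 to 3 and dystrophic replicates 4 to 6, the libraries whose numbers differ, gave 3 genes called lower and 0 higher, which were mt-Rnr2 (log2 fold change -1.49, edgeR adjusted p = 1.22e-12), mt-Rnr1 (-1.50, adjusted p = 2.11e-05) and Tmsb4x. Leaving out hypertrophic replicates 4 to 6 instead, so that only libraries of 1 title number series were compared, gave 0 calls, and mt-Rnr2 and mt-Rnr1 kept the lower direction at -0.68 and -0.78 (adjusted p = 0.379 for both). In a fit of all 15 libraries, replicates 1 to 3 against WT gave -0.89 for mt-Rnr2 (edgeR adjusted p = 0.0271), which passed the threshold, and -0.98 for mt-Rnr1 (adjusted p = 0.406), which did not. Exchanging the labels of the crossed libraries left both called, at -1.05 (adjusted p = 4.53e-07) and -1.02 (adjusted p = 0.0426). The exchange brings in libraries titled dystrophic, a group itself lower than WT in mt-Rnr2, so it cannot show which labels are right. Compared directly, replicates 4 to 6 and replicates 1 to 3 differed in 0 genes by the adjusted p (0% of 6887), and at an unadjusted p under 0.05 in 676 genes (9.82%), of which 8 were member genes. For mt-Rnr2 that difference was -0.59 (edgeR adjusted p = 0.289).

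Leaving out hypertrophic replicate 1 left mt-Rnr2 at -0.83 (edgeR adjusted p = 0.0496) and mt-Rnr1 at -0.90 (adjusted p = 0.377). That library had the lowest mt-Rnr2 level in CPM, whereas after TMM scaling replicate 4 was lowest, at 20456 against 32691 CPM. Leaving out WT replicate 2, the deepest of the 9 libraries compared, left mt-Rnr2 called and mt-Rnr1 at -1.09 (adjusted p = 0.153). In each of the 9 fits with 1 library left out, mt-Rnr2 stayed under the threshold, and mt-Rnr1 did so in 7.

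**Figure D5:**
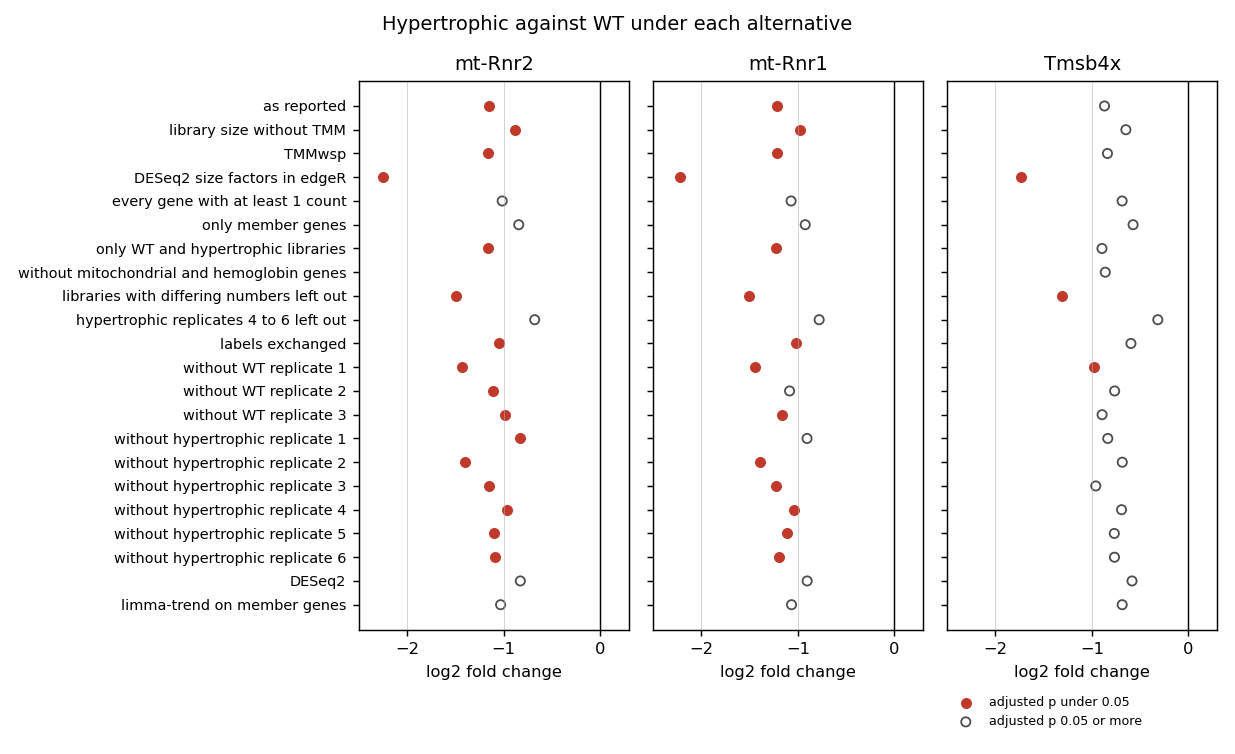
Log2 fold change, hypertrophic over WT, of mt-Rnr2, mt-Rnr1 and Tmsb4x (x axis) as reported and under each alternative (rows), with filled points where the adjusted p was under 0.05. All points lie below 0, and with hypertrophic replicates 4 to 6 left out, with DESeq2, with limma, and with a filter that keeps every counted gene or only the member genes none of the 3 is filled.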

How the data were processed

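After preamplification, 15 libraries of plasma EV RNA were sequenced. Per the study's methods the single 50-base reads were aligned by the authors with TopHat v2.0.2 to mouse genome mm10, and the submitters' processing notes name HTSeq and DESeq. The labels name a stranded mRNA kit and the methods the TruSeq v2 kit. The authors deposited raw counts per gene symbol, 43472 symbols a library, with 5 summary rows (no feature, ambiguous, low quality, not aligned, not unique) that were left out here and held 57.9% to 99.2% of the reads or alignments listed in the 9 libraries compared. No 2 libraries were identical or agreed within sampling noise (smallest chi-square per degree of freedom 15.9 over 105 pairs).

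Samples were grouped by title, which the genotype label matches. Counts were filtered with edgeR's default rule, scaled by TMM and tested two-sided with edgeR 4.0.16 (quasi-likelihood) over all 15 libraries and 3 groups, in R 4.3.3, with Benjamini-Hochberg adjustment over 6887 genes and a threshold of 0.05. The biological coefficient of variation was 3.04. The prior degrees of freedom of the quasi-likelihood fit were infinite, so the spread of each gene was taken wholly from the trend over genes. In data simulated with the dispersions of these libraries for this comparison, on 6877 genes, 0% of 4-fold and 0% of 16-fold changes were recovered. The changed genes were drawn at random from the tested genes above the median level. The median error of their log2 fold changes was 1.16 and 2.48. At a dispersion of 0.1 on 6887 genes, 97% and 100% were recovered, and 7 unchanged genes were called. Levels are CPM over reads on genes, and log2 ratios of mean CPM use a pseudocount of 1 CPM. limma 3.58.1 and DESeq2 1.42.0 gave alternatives, and DESeq2 left 643 adjusted p-values missing.

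The member rule and the 34 gene lists were chosen with earlier results of these data known. Named genes were those called, the 12 members with the most reads, members without overlap between groups, Mstn, Hgf, Met, Sgcb, Cd9, Cd63 and Cd81, and per list up to 3 genes of highest mean CPM and up to 2 members of smallest unadjusted p. Annotation came from GENCODE M21, which matched 579 members by symbol, and 5 list entries were found under older symbols. H2-L, Ahsp and Snhg8 were not matched.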

Additional observations from a re-analysis of the deposited data

Results flagged for a closer look

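In hypertrophic replicate 2, RP23-131N18.1 stood at 10515 CPM, far from the other 5 hypertrophic libraries, the lowest of which was at 2594 CPM. The gap to the nearest library was 0.795 of the whole range, above the 95% critical value of Dixon's test for 6 samples. It was the 1 value so marked among 29 tested, and chance marks about 1 in 20 groups.

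Reads that fell on no annotated gene, which no comparison above used, made up a median of 7.76% of the reads on no gene or 1 gene in hypertrophic libraries, with a range of 4.45% to 13.2%. In WT libraries the median was 3.26% and the range 1.69% to 4.57%, so the lowest hypertrophic library reached just below the highest WT library. The part of these reads in the other results was not tested.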

How the results depend on the processing

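The 2 genes called lower became 35, all lower, with DESeq2 size factors in edgeR. That scaling moved the median edgeR log2 fold change of all member genes from -0.25 to -1.39, so the 35 calls are not a stronger form of the 2. DESeq2 called 1031 genes, 892 higher and 139 lower, and neither of the 2 was among them. The count of calls was 0 with every gene with at least 1 count kept, with only member genes, with hypertrophic replicates 4 to 6 left out, with limma-trend (added after seeing the data), and, since both are mitochondrial, without mitochondrial and hemoglobin genes. Leaving out 1 library gave 1 to 3 calls. The number of genes not overlapping, 9 as reported, was 4 when 10 counts were required in every library (116 members), 39 with hypertrophic replicates 1 to 3 left out, 78 with replicates 4 to 6 left out, 15 with the labels exchanged, 17 with TMM-scaled CPM, of which 3 were among the 9, and 10 to 25 with 1 library left out. The median log2 ratio of member genes, 0.18, was -0.26 with TMM-scaled CPM and ran from -0.51 to 0.30 with 1 library left out. The number of member genes, 598 as reported, ran from 225 to 560 with 1 library left out and was 802 with hypertrophic replicates 4 to 6 left out. The cause of these shifts was not tested, apart from the fewer libraries or genes that some alternatives hold.

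Signs of uncalled genes also turned. Without TMM the log2 fold changes were 0.12 for B2m, 0.42 for Eef1a1, 0.027 for Hbb-bs and 0.082 for mt-Cytb. With every counted gene kept they were 0.00413 for B2m, 0.032 for Eef1a1 and 0.063 for Hbb-bs, and with only member genes 0.16, 0.32 and 0.18 for these and 0.036 for mt-Cytb. With DESeq2 they were 0.17 for B2m, 0.50 for Eef1a1, 0.092 for Hbb-bs and 0.14 for mt-Cytb, and with limma-trend 0.075, 0.28 and 0.14 for the first 3. With DESeq2 size factors in edgeR, Cd9 was at -0.47, Ppbp at -0.66, Pabpc1 at -0.50, Prkar1a at -0.37 and Rpl9 at -0.43. These values lay above the median of the member genes under that scaling, which was -1.39. Without the libraries of differing numbers, Cd9 was at -0.60, Ppbp at -0.068 and Eef1a1 at 0.000565. With hypertrophic replicates 4 to 6 left out, 1810058I24Rik was at 0.052, B2m at 0.28, Eef1a1 at 0.032, Fth1 at 0.10, Hba-a1 at 0.058, Hbb-bs at 0.33 and mt-Cytb at 0.015. With the labels exchanged, Cd9 was at -0.16, Ppbp at -0.28, Eef1a1 at 0.45, Hba-a1 at 0.42, Hbb-bs at 0.44 and mt-Co1 at -0.094. With 1 library left out, B2m ran from -0.33 to 0.00127, Eef1a1 from -0.46 to 0.15, Hba-a1 from -0.87 to 0.13, Hbb-bs from -0.59 to 0.21 and mt-Cytb from -0.54 to 0.58.

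No paired analysis was possible because the labels give no replicate numbers, and the numbers used here follow only the order of deposit. Depth was least in WT replicate 1, where the limit of a count of 0 was 110 CPM.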
